A study of Mus musculus with 20 samples.

Results

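The genes described here encode proteases that cut the extracellular matrix and cell surface proteins, together with inhibitors that hold them in check. They are the tissue inhibitors of metalloproteinases Timp1, Timp2 and Timp3, the matrix metalloproteinases Mmp2, Mmp9, Mmp10 and Mmp14, the secreted protease Adamts1, and the membrane-bound proteases Adam8 and Adam17. They were chosen with earlier results of these data known and matched by name to the array annotation. All 10 were found among its 27827 gene names. RNA came from whole kidneys of male C57BL/6 mice, 8 to 12 weeks old, with 4 arrays in each of 5 groups. Control mice had neither ischemia nor Hemin, and no sham operation is described for them. IRI mice had both renal pedicles clamped for 45 min and were killed after 6 h of reperfusion. IRI+Hemin mice received Hemin, an inducer of heme oxygenase 1, at 25 mg/kg into the peritoneum 24 h before the same surgery. IPC+IRI mice had both pedicles clamped for 15 min, as ischemic preconditioning (IPC), 7 days before the same ischemia and reperfusion. Hemin mice received the same dose without ischemia. Nothing in the labels says whether a kidney was pooled or split between arrays, so p-values measure the spread between these arrays, and in whole tissue fewer cells of a type cannot be told apart from less RNA per cell.

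Matrix metalloproteinases are made as inactive zymogens, and their activity in tissue is set by transcription, by removal of the propeptide and by the tissue inhibitors, which bind the active site of the enzyme. MMP14 sits in the cell membrane and, with TIMP2 as a bridge, activates pro-MMP2, so TIMP2 takes part in activation as well as in inhibition. ADAM17 sheds TNF and ligands of the EGF receptor from the cell surface, and TIMP3 is its known physiological inhibitor. In the kidney these proteins act on tubular basement membrane, on the interstitium and on leukocytes that enter injured tissue.

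The value of a gene is its log2 expression, the log2 of its background-subtracted signal over the 75th percentile of the array, so that 0 lies at that percentile. A gene was called in a comparison at an adjusted p below 0.05 (limma, Benjamini-Hochberg over all genes tested). Among the 10 genes, 8 were well above background, a flag of the scanner software, on all 20 arrays, Mmp10 on 15 and Mmp9 on 3. The 75th percentile lay between 146.7 and 357.9 intensity units over the arrays, and an array had 57.4% to 67.4% of its genes well above background. Since the arrays of a group shared 1 slide with no other group, the effects of slide and treatment cannot be told apart. Control and IRI were scanned on the same day, IRI+Hemin on another day, and IPC+IRI and Hemin together on yet another day. Groups without overlap give p = 0.0286 in an exact two-sided permutation test, the smallest possible with 4 against 4 arrays. Kidney identity was plain in the arrays, since all 6 proximal tubule markers and all 4 markers of the distal tubule and collecting duct were well above background on every array.

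Timp1, Mmp10, Adamts1 and Adam8 rose at least 2-fold in IRI against Control, and their promoters are shown because these genes moved together there. The choice was made after their values were known. RefSeq promoter entries were found for 8 of the 10 genes, all except Mmp2 and Mmp9. Each sequence is the 250 bases before the transcript start of the entry, 5′ to 3′ on the gene's strand, in GRCm38.p6, with matches to the motifs searched in capitals.
Timp1: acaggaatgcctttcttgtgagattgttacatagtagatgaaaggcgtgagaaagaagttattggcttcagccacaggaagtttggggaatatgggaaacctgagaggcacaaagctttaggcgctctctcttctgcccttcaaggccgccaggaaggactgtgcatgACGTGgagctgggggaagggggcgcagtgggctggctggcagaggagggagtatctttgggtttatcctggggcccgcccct
Mmp10: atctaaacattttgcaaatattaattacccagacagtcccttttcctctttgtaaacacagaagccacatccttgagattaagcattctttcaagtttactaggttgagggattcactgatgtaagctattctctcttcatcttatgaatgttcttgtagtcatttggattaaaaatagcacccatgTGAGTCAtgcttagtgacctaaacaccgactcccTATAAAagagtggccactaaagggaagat
Adamts1: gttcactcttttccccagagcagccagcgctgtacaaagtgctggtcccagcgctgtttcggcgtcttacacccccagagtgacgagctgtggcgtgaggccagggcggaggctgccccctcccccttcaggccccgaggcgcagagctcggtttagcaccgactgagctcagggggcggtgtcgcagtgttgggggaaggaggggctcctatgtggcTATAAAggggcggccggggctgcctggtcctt
Adam8: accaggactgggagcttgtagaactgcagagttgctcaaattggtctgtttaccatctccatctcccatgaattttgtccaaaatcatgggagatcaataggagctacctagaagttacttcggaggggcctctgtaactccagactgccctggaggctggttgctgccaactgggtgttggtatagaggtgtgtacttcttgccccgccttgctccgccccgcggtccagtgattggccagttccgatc
These windows lie at chrX:20869916-20870165 (plus strand), chr9:7502092-7502341 (plus strand), chr16:85803114-85803363 (minus strand) and chr7:139992563-139992812 (minus strand), in the order printed. Motifs were searched on both strands as exact letters. They were AP-1 (TGANTCA), the cAMP response element (TGACGTCA), the STAT motif (TTCNNNGAA), the hypoxia response core (ACGTG), the TATA box (TATAAA), and the NF-kappaB and CArG box consensus motifs. No match overlapped another. The Mmp10 window holds TGAGTCA from 63 to 57 bases before the start, an AP-1 match found in 6.75% of 32851 promoter windows of this length. TATAAA lies from 29 to 24 bases before the start in Mmp10 and from 32 to 27 in Adamts1, and 12.4% of all windows hold it. The Timp1 window holds ACGTG from 82 to 78 bases before the start, a core present in 16.6% of all windows. Among the other matched genes, Mmp14 holds the same core, as CACGT, from 48 to 44 bases before its start. The remaining motifs, present in 1.55% (cAMP response element), 7.02% (STAT), 7.25% (NF-kappaB) and 1.47% (CArG box) of all windows, had no match in the 8 genes.

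**Figure D1:**
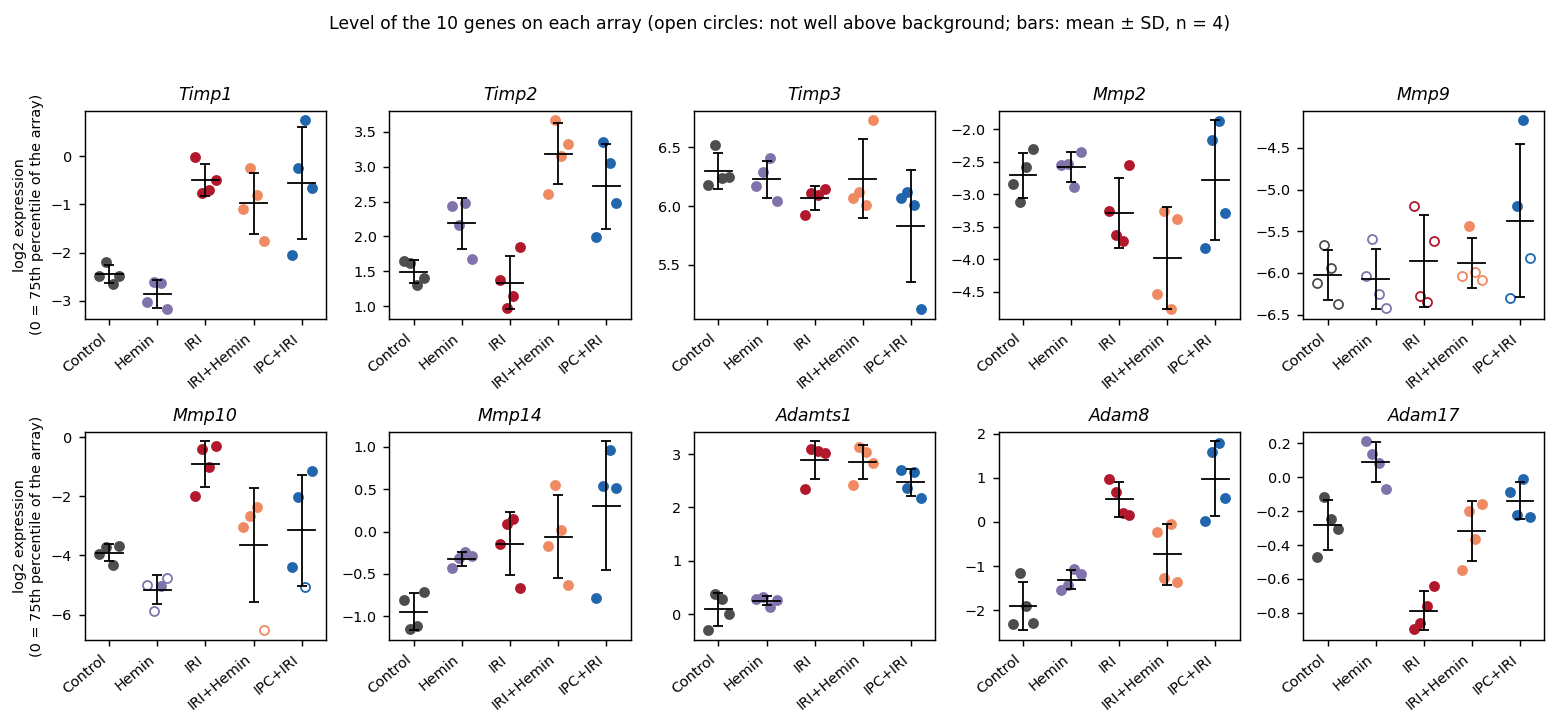
Log2 expression (0 is the 75th percentile of the array) of the 10 genes in 5 groups of 4 arrays, with 1 circle per array, open where the gene was not well above background, and black bars for the mean ± SD. Timp1 and Adamts1 sit higher on every array with ischemia than on every array without, and Adam17 is lowest on the 4 IRI arrays.

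Adamts1, a secreted protease that cleaves aggrecan and versican and binds VEGF, was higher in each ischemic group than in Control. Its log2 expression was -0.31, 0.37, 0.28 and 0.00 on the Control arrays and 0.29, 0.32, 0.14 and 0.26 on the Hemin arrays. It was 2.35, 3.09, 3.07 and 3.02 in IRI, 2.42, 3.14, 3.03 and 2.83 in IRI+Hemin, and 2.71, 2.36, 2.66 and 2.17 in IPC+IRI. The arrays with ischemia all lay above the arrays without it. Against Control, Adamts1 was 6.95-fold higher in IRI (log2 change 2.80 ± 0.19 SE, adjusted p = 8.22e-09) and 5.23-fold higher in IPC+IRI (2.39 ± 0.19, adjusted p = 5.4e-08). In Hemin-treated mice ischemia raised it 6.08-fold (2.60 ± 0.19, adjusted p = 3.73e-08). No pair of the 3 ischemic groups was called different. IRI+Hemin against IRI differed by -0.03 with a 95% interval from -0.44 to 0.38, and IPC+IRI against IRI by -0.41, from -0.82 to 0.00 (adjusted p = 0.093). Hemin alone differed from Control by 0.17, with an interval from -0.24 to 0.58. In the order IRI, IRI+Hemin, IPC+IRI, Hemin and Control, the only neighbours called different were IPC+IRI and Hemin (log2 difference 2.22 ± 0.19, adjusted p = 2.54e-07), where 13.1% of all genes were called higher. Its 2 probes, at chr16:85795044-85795103 and chr16:85796191-85796250 of mm9, gave log2 changes of 2.79 and 2.84 in IRI against Control.

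Timp1, an inhibitor of most matrix metalloproteinases that is also known as a secreted growth factor, followed ischemia as well. Control arrays lay at -2.48, -2.19, -2.64 and -2.48, and Hemin arrays at -3.02, -2.61, -2.62 and -3.17. Levels were -0.01, -0.75, -0.70 and -0.50 in IRI, -1.10, -0.24, -0.81 and -1.75 in IRI+Hemin, and -2.06, -0.24, 0.75 and -0.65 in IPC+IRI. No ischemic array fell into the range of the arrays without ischemia, although IPC+IRI replicate 1 lay close to it. The rise over Control was 3.88-fold in IRI (log2 change 1.96 ± 0.41 SE, adjusted p = 0.000768) and 3.72-fold in IPC+IRI (1.90 ± 0.41, adjusted p = 0.000859). Ischemia after Hemin raised Timp1 3.68-fold over Hemin alone (1.88 ± 0.41, adjusted p = 0.00147). Ordered by mean level the ischemic groups ran from IRI+Hemin (-0.98 ± 0.63 SD, n = 4) through IPC+IRI (-0.55 ± 1.16) to IRI (-0.49 ± 0.34), and no neighbours among these were called different. The step from Control to IRI+Hemin, the neighbour above it, was called (1.47 ± 0.41 SE, adjusted p = 0.00562), in a comparison where 24.4% of all genes were called higher and 33.2% lower. After normexp background correction, a model of the background that leaves dim signals closer together, the rise in IRI was 1.14 and still called. IRI+Hemin against IRI gave -0.49 (95% interval -1.37 to 0.39) and IPC+IRI against IRI gave -0.06 (-0.94 to 0.82). Of its 2 probes, the first (chrX:20449905-20449964 on mm9) was well above background on no Control array and on all 4 IRI arrays, and the second (chrX:20451675-20451733) on all arrays of both groups. The second gave a log2 change of 1.96 in IRI against Control, and the first has only a bound in Control.

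Timp2, which inhibits matrix metalloproteinases and bridges MMP14 to pro-MMP2, was not called in IRI against Control and was highest in the pretreated groups with ischemia. Its levels were 1.65, 1.62, 1.31 and 1.41 in Control and 1.38, 0.97, 1.14 and 1.85 in IRI, and these groups overlapped. Hemin arrays lay at 2.43, 2.16, 2.48 and 1.68, IPC+IRI arrays at 1.99, 3.36, 3.05 and 2.48, and IRI+Hemin arrays at 2.61, 3.67, 3.15 and 3.33. Every array of these 3 groups except Hemin replicate 4 lay above every Control and IRI array. Timp2 was 3.61-fold higher in IRI+Hemin than in IRI (log2 change 1.85 ± 0.28 SE, adjusted p = 6.94e-05) and 2.61-fold higher in IPC+IRI than in IRI (1.38 ± 0.28, adjusted p = 0.000779). It also exceeded Control in IPC+IRI, by 2.33-fold (1.22 ± 0.28, adjusted p = 0.00124), and Hemin in IRI+Hemin, by 2.00-fold (1.00 ± 0.28, adjusted p = 0.00771). In Hemin against Control the change was 0.69 ± 0.28 with groups that did not overlap, and it was not called (adjusted p = 0.0597). IRI against Control gave -0.16 (95% interval -0.75 to 0.43). The ischemia effect with Hemin minus that without was 1.16 ± 0.39, adjusted p = 0.0801, and was not called. IPC+IRI against IRI+Hemin, the highest group, gave -0.47 (interval -1.06 to 0.12), and IPC+IRI against Hemin 0.53 (-0.06 to 1.12). In the order IRI, Control, Hemin, IPC+IRI and IRI+Hemin no neighbours were called different. The SAM test of the study's methods called neither of the changes in IPC+IRI. The single probe lies at chr11:118163146-118163205 on mm9. The groups with raised Timp2 are also those scanned on other days than Control and IRI, so the scan day cannot be told apart from the treatment here.

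Timp3, a matrix-bound inhibitor that also acts on ADAM17, varied little between groups. Its levels were 6.18, 6.52, 6.24 and 6.24 in Control, 5.92, 6.11, 6.09 and 6.15 in IRI, and 6.07, 6.12, 6.01 and 5.12 in IPC+IRI. Hemin arrays ran from 6.04 to 6.41 and IRI+Hemin arrays from 6.01 to 6.73. All IRI arrays lay below all Control arrays by a small margin, with a log2 change of -0.23 ± 0.19 SE that was not called (adjusted p = 0.345). IPC+IRI was called lower than Control (-0.47 ± 0.19, adjusted p = 0.0488), and this rested on IPC+IRI replicate 4: without it the change was -0.23 (adjusted p = 0.217). In the order Control, IRI+Hemin, Hemin, IRI and IPC+IRI, from the highest mean down, no neighbours were called different. Leaving out Control replicate 1, 2, 3 or 4 also ended the call, with adjusted p from 0.0579 to 0.119.

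Mmp10, or stromelysin 2, a protease that activates other metalloproteinases, had the largest log2 change of the 9 tested members in IRI against Control and the widest spread between arrays. Control arrays lay at -3.95, -3.70, -4.31 and -3.67 and IRI arrays at -1.99, -0.39, -1.01 and -0.30, so that the groups were far apart. In IPC+IRI the arrays lay at -4.40, -2.01, -5.07 and -1.13, and in IRI+Hemin at -3.03, -2.68, -2.36 and -6.53. Each of the latter groups had 1 array not well above background, IPC+IRI replicate 3 and IRI+Hemin replicate 4. In Hemin the levels were -4.99, -5.88, -5.03 and -4.77, all below the Control arrays, and only replicate 3 was well above background. Mmp10 was 7.93-fold higher in IRI than in Control (log2 change 2.99 ± 0.84 SE, adjusted p = 0.00641). After normexp correction this change was 1.33 and still called. It was 6.63-fold lower in IRI+Hemin than in IRI (-2.73 ± 0.84, adjusted p = 0.0135). Without IRI+Hemin replicate 4 that change was -1.77 and no longer called (adjusted p = 0.0503). IPC+IRI was also called lower than IRI (-2.23 ± 0.84, adjusted p = 0.0384), with groups that overlapped, and the call ended without IRI replicate 2, 3 or 4 or IPC+IRI replicate 1 or 3 (adjusted p from 0.0639 to 0.139). Neither pretreated group was called against Control. IPC+IRI gave 0.76 (95% interval -1.02 to 2.54) and IRI+Hemin 0.26 (-1.52 to 2.04). In the order IRI, IPC+IRI, IRI+Hemin, Control and Hemin, only the first pair of neighbours was called different. With Mmp10 measured on 1 of 4 Hemin arrays, no change over Hemin is given. The probe lies at chr9:7510011-7510070 on mm9.

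Mmp14, the membrane protease that activates pro-MMP2, was called higher than Control in each ischemic group, and ischemia after Hemin gave no call over Hemin alone. Its levels were -0.80, -1.15, -1.12 and -0.71 in Control, -0.14, 0.09, 0.15 and -0.67 in IRI, and -0.79, 0.53, 0.96 and 0.52 in IPC+IRI. In IRI+Hemin they were -0.17, 0.55, 0.02 and -0.63, and in Hemin -0.43, -0.32, -0.24 and -0.29. IRI, IRI+Hemin and Hemin each lay wholly above Control, while IPC+IRI replicate 1 sat within the Control range. The log2 change against Control was 0.80 ± 0.30 SE in IRI (adjusted p = 0.0322) 0.89 ± 0.30 in IRI+Hemin (adjusted p = 0.017) and 1.25 ± 0.30 in IPC+IRI (adjusted p = 0.00177). The IRI call ended when Control replicate 2 or 3 or IRI replicate 1, 2 or 3 was left out (adjusted p from 0.0567 to 0.0858). It was also lost with normexp correction, without normalization, with scaling by probes well above background, with the deposited matrix and with SAM. In IRI+Hemin against Hemin the change was 0.26 ± 0.30 with overlapping groups (adjusted p = 0.498, 95% interval -0.38 to 0.90). Hemin against Control gave 0.63 ± 0.30 and was not called (adjusted p = 0.108). In IPC+IRI against IRI the change was 0.45 ± 0.30 (adjusted p = 0.231), and without IPC+IRI replicate 1 it was 0.81 with adjusted p = 0.0114. From Hemin upward the mean levels were -0.32 in Hemin, -0.14 in IRI, -0.06 in IRI+Hemin and 0.31 in IPC+IRI, and no neighbours in that order, nor Hemin and Control, were called different.

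Mmp2, gelatinase A, which degrades collagen IV of basement membranes, was not called higher in any of the 6 comparisons. Control arrays lay at -2.84, -3.11, -2.58 and -2.30, Hemin arrays at -2.55, -2.54, -2.89 and -2.34, and IRI arrays at -3.26, -3.63, -3.73 and -2.55. IRI+Hemin arrays lay at -4.53, -3.25, -4.77 and -3.37 and IPC+IRI arrays at -3.82, -2.16, -1.87 and -3.29. IRI+Hemin lay wholly below Hemin and below Control. It was 2.64-fold lower in IRI+Hemin than in Hemin (log2 change -1.40 ± 0.41 SE, adjusted p = 0.0101) and 2.42-fold lower than in Control (-1.27 ± 0.41, adjusted p = 0.0127). After normexp background correction the first of these was -0.39 and not called (adjusted p = 0.26). IRI against Control gave -0.58 (95% interval -1.45 to 0.29), and the difference between that effect and the ischemia effect with Hemin was -0.82 ± 0.58 (adjusted p = 0.438). IPC+IRI spread over most of the range of the other groups, with -0.08 against Control (interval -0.95 to 0.79). In the order Hemin, Control, IPC+IRI, IRI and IRI+Hemin no neighbours were called different. The single Mmp2 probe lies at chr8:95376840-95376899 on mm9.

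Mmp9, gelatinase B, which neutrophils store in granules, was not tested, because it was well above background on only 3 of 20 arrays. These were IPC+IRI replicates 2 and 3, at -5.20 and -4.17, and IRI+Hemin replicate 2, at -5.44. On the other 17 arrays it lay between -6.42 and -5.19, levels that the arrays could not separate from background. Of its 2 probes, the one printed 10 times on each array (chr2:164780620-164780679) was well above background at none of these copies on any array, and its mean signal ran from 1.67 to 6.24 intensity units. At this sensitivity a difference in Mmp9 between groups was not detectable.

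Adam8, a membrane protease known from leukocytes, was raised after ischemia with and without preconditioning and less so after Hemin. Its levels were -2.30, -1.15, -1.89 and -2.30 in Control and -1.55, -1.43, -1.07 and -1.17 in Hemin. They were 0.98, 0.68, 0.21 and 0.17 in IRI, 0.01, 1.58, 1.78 and 0.55 in IPC+IRI, and -0.23, -1.28, -0.04 and -1.36 in IRI+Hemin. IRI and IPC+IRI lay wholly above Control and Hemin, while IRI+Hemin overlapped both and lay wholly below IRI. IRI+Hemin was still called higher than Control (1.18 ± 0.38, adjusted p = 0.0135). Adam8 was 5.35-fold higher in IRI than in Control (log2 change 2.42 ± 0.38 SE, adjusted p = 5.65e-05) and 7.41-fold higher in IPC+IRI (2.89 ± 0.38, adjusted p = 8.92e-06). IRI+Hemin was 2.36-fold lower than IRI (-1.24 ± 0.38, adjusted p = 0.0142), a call that ended at -1.02 and adjusted p = 0.0508 without IRI+Hemin replicate 4. It was also 3.26-fold lower than IPC+IRI (adjusted p = 0.00878). In Hemin-treated mice ischemia gave 0.58 ± 0.38 over Hemin (95% interval -0.24 to 1.39), against 2.42 in untreated mice, and the difference of these effects was -1.84 ± 0.54 (adjusted p = 0.0438). Of all genes, 1.94% had a negative difference past this threshold and 5.83% a positive one. The Adam8 difference was called in 6 of 11 alternative settings and in 4 of 16 fits without 1 array. Mean levels ran in the order Control, Hemin, IRI+Hemin, IRI and IPC+IRI, and of these neighbours only IRI+Hemin and IRI were called different. The probe lies at chr7:147164928-147164987 on mm9.

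Adam17, the sheddase of TNF and of EGF receptor ligands, moved the other way and by little. Control arrays lay at -0.47, -0.11, -0.24 and -0.30 and IRI arrays at -0.89, -0.86, -0.76 and -0.64. Levels were -0.55, -0.20, -0.36 and -0.16 in IRI+Hemin, -0.09, -0.22, -0.01 and -0.23 in IPC+IRI, and 0.21, 0.14, 0.09 and -0.07 in Hemin. The IRI arrays were the 4 lowest of the 20. Adam17 was 1.42-fold lower in IRI than in Control (log2 change -0.51 ± 0.11 SE, adjusted p = 0.000941) and 1.33-fold lower in IRI+Hemin than in Hemin (-0.41 ± 0.11, adjusted p = 0.00595). It was 1.57-fold higher in IPC+IRI than in IRI (0.65 ± 0.11, adjusted p = 0.000188), 1.39-fold higher in IRI+Hemin than in IRI (0.47 ± 0.11, adjusted p = 0.00223) and 1.30-fold higher in Hemin than in Control (0.37 ± 0.11, adjusted p = 0.0132). The ischemia effect with Hemin differed from that without by 0.10 ± 0.15 (adjusted p = 0.768). After normexp background correction all 5 changes kept their direction and none was called, with adjusted p from 0.0639 to 0.117. For Adam17 too, the comparisons in which Adam17 was higher cross scan days, while IRI against Control does not. In the order IRI, IRI+Hemin, Control, IPC+IRI and Hemin, only IRI and IRI+Hemin were neighbours called different. Its 2 probes lie at chr12:21330545-21330604 and chr12:21330653-21330712, and in Hemin against Control they gave log2 changes of 0.47 (adjusted p = 0.00429) and 0.28 (adjusted p = 0.0792).

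**Figure D2:**
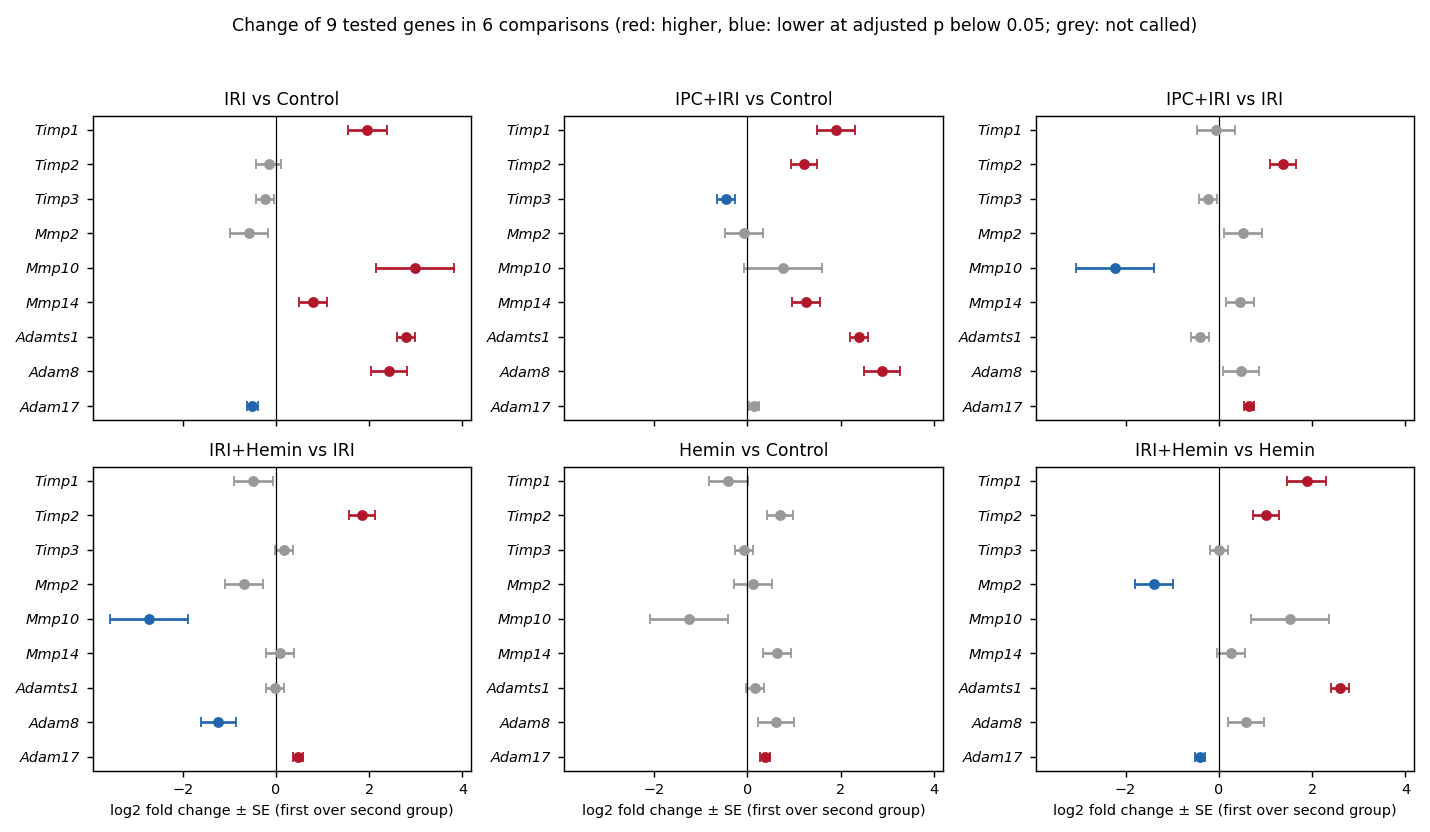
Log2 fold change ± SE (limma) of the 9 tested genes in 6 comparisons, first over second group, with genes called higher in red, called lower in blue and not called in grey. IRI against Control has 5 genes called higher and 1 lower, and Hemin against Control has 1 called, Adam17.

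Counted by comparison, 5 or 6 of the 9 tested genes were called in IRI and IPC+IRI against Control and in IRI+Hemin against Hemin. The members were chosen with earlier results of these data known. Their counts and median are therefore a description and no test against all genes. In IRI against Control 5 of the 9 tested genes were higher (Timp1, Mmp10, Mmp14, Adamts1 and Adam8) and 1 was lower (Adam17), where 17% of all 17711 genes tested were called higher and 33.7% lower. At least 2-fold as well, 4 were higher, against 5.97% of all genes. The median log2 change of the 9 was 0.80, and that of all genes tested was -0.17. In IPC+IRI against Control 5 were higher (Timp1, Timp2, Mmp14, Adamts1 and Adam8), against 23.1% of all genes, and 1 was lower (Timp3), against 32.6%. All 5 were at least 2-fold higher, a share of 7.96% over all genes. In IRI+Hemin against Hemin 3 were higher (Timp1, Timp2 and Adamts1), against 16.4%, and 2 were lower (Mmp2 and Adam17), against 27.8%. SAM called 4 of the 5 higher in IRI (all but Mmp14), Adamts1 and Adam8 in IPC+IRI against Control, and Timp1 and Adamts1 in IRI+Hemin against Hemin, and called no member lower.

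Between ischemic groups fewer members moved. In IRI+Hemin against IRI Timp2 and Adam17 were higher and Mmp10 and Adam8 lower, where 26.1% of all genes were called higher and 18% lower. In IPC+IRI against IRI Timp2 and Adam17 were again higher and Mmp10 lower, where 26% were called higher and 17.7% lower. Both comparisons use the same 4 IRI arrays. In both, the share of members called was near that of all genes, so these counts are no result about the members as a set. In Hemin against Control 1 of the 9 was higher and none was lower by limma, where 18.4% of all genes were called higher and 17.6% lower. At an unadjusted p below 0.05 the counts were 2 higher and 0 lower, and SAM called none of the 9. IPC+IRI set directly against IRI+Hemin separated Adam8 alone among the 9 (log2 change 1.71 ± 0.38 SE, adjusted p = 0.00878), and 6.21% of all genes were higher and 5.44% lower there.

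**Figure D3:**
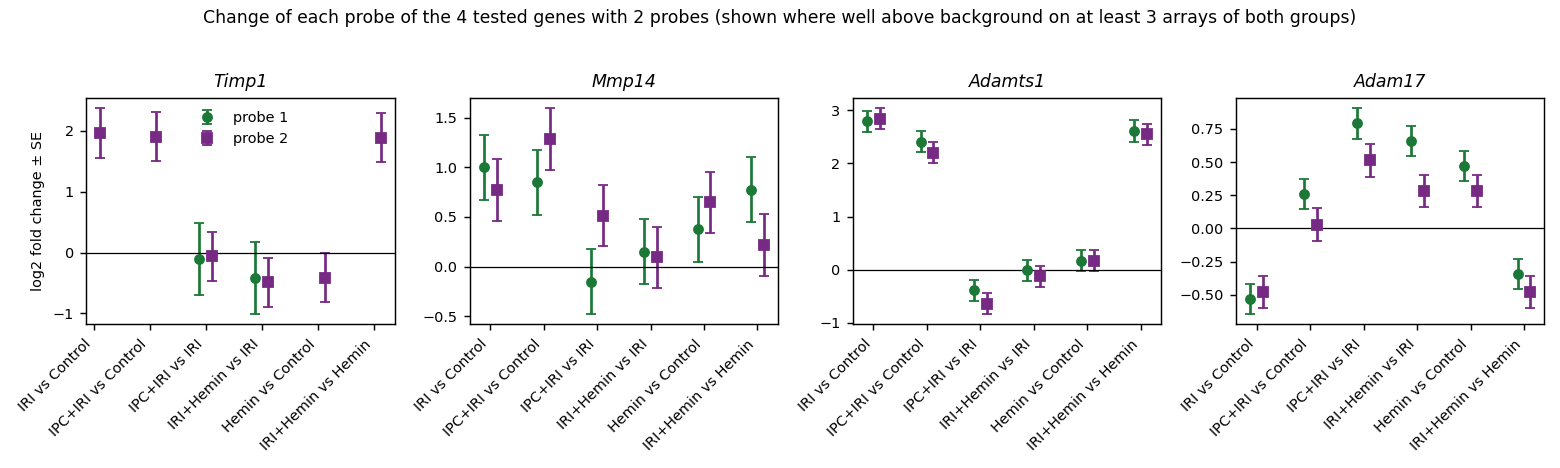
Log2 fold change ± SE of each probe (circles, probe 1; squares, probe 2) of the 4 tested genes with 2 probes in the 6 comparisons. Points are drawn where the probe was well above background on at least 3 arrays of both groups. In IRI against Control the Adamts1 probes lie at 2.79 and 2.84, and in IPC+IRI against IRI the Mmp14 probes lie at -0.15 and 0.51.

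Separate probes of a gene served as a second reading of the same RNA. Timp1, Adamts1, Mmp14 and Adam17 have 2 tested probes, and wherever Adamts1, Mmp14 or Adam17 was called both probes changed in the direction of the gene. The first Timp1 probe was well above background on no Control array and 1 Hemin array, so it is no second reading in comparisons with these groups. In IPC+IRI against IRI the second Adamts1 probe was lower by itself (log2 change -0.63 ± 0.20 SE, adjusted p = 0.0144), while the first gave -0.38 (adjusted p = 0.122) and the gene was not called. For Adam17 the second probe also missed the threshold in IRI+Hemin against IRI (0.28, adjusted p = 0.064), where the first gave 0.66 (adjusted p = 0.0002). The Mmp14 probes, at chr14:55058775-55058834 and chr14:55059969-55060028, gave 1.00 and 0.77 in IRI against Control.

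The other genes of these families are given by their counts, to be read against the shares of all genes above, where lower calls outnumbered higher ones after ischemia too. Of the other matrix metalloproteinases 17 were on the array by name and 8 were tested in IRI against Control, of which 1 was higher and 5 lower, with a median log2 change of -0.76. Only 4 of the 8 were well above background on at least 3 arrays of both groups, and of these none was higher and 3 were lower. Mmp28 and Mmp24, both called lower and named here after their values were seen, passed the filter through Control alone, being well above background on no IRI array. The 1 gene called higher was not among the 4 measured in both groups either. After normexp correction none of the 8 was higher and 1 was lower, and the median was 0.02. Mmp11, stromelysin 3, which is known from matrix remodelling in stroma, was 4.14-fold lower in IRI (-2.05 ± 0.33 SE, adjusted p = 6.23e-05). It was also lower in IPC+IRI against Control (-1.45) and in IRI+Hemin against Hemin (-1.74). After normexp correction the Mmp11 changes were, in the same order, -0.77, -0.84 and -1.23, and each was still called. Of the other ADAM and ADAMTS genes 18 were tested in IRI against Control, of which 3 were higher and 10 lower, with a median of -0.65. After normexp correction 1 was higher and 1 lower, with a median of 0.05. Of the 16 well above background on at least 3 arrays of both groups, 3 were higher and 8 lower. The 2 others, Adamts16 and Adam33, were called lower and passed through Control alone, and both are named for that reason. Under the other 3 scalings of the arrays both medians stayed below 0. In IPC+IRI against Control 1 was higher and 10 lower of 18, with a median of -0.55, and the 5 genes of this list that met the rule for naming were ADAMTS genes. They were Adamts16 (-1.65), Adamts10 (-1.41), Adamts14 (-1.19), Adamts12 (-1.15) and Adamts5, a known aggrecanase that was 2.00-fold lower. After normexp correction 5 of the 18 were lower and none higher (limma), and Adamts16 (-0.54, adjusted p = 0.1) and Adamts12 (-0.41, adjusted p = 0.168) were not called. Adamts12 was lower in IRI as well (-1.01), a change that turned to 0.06 after normexp correction. Of the 23 changes of other proteases named here, it was the 1 that turned its direction under normexp correction, where 17 were still called in the same direction. All 23 were called under quantile normalization and 21 without normalization between arrays, where Adamts12 (adjusted p = 0.0628) and Adamts5 (adjusted p = 0.179) in IPC+IRI against Control were not. In IRI+Hemin against Hemin 3 of 19 were higher and 7 lower, among them Adamts16 (-1.68), Adamts10 (-1.53) and Adamts7 (-1.02) lower and Adamts4, another aggrecanase, higher (1.41 ± 0.44, adjusted p = 0.0153). Shares over all genes there were 16.4% higher and 27.8% lower. After normexp correction 1 of the 19 was higher and 2 lower, and Adamts16 (-0.35, adjusted p = 0.366), Adamts10 (-0.47, adjusted p = 0.137) and Adamts7 (-0.32, adjusted p = 0.348) were not called.

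Adamts15 was lower in IRI than in Control and stood near its Control level in the preconditioned group, which had the same ischemia. Its mean was 0.85 ± 0.24 (SD, n = 4) in Control, -0.84 ± 0.26 in IRI and 0.89 ± 0.42 in IPC+IRI. The log2 change was -1.69 ± 0.20 SE in IRI against Control (adjusted p = 2.5e-06) and 1.73 ± 0.20 in IPC+IRI against IRI (adjusted p = 8.75e-06). In IRI+Hemin it was 2.34-fold higher than in IRI (1.22 ± 0.20, adjusted p = 0.000116). Both of these comparisons with IRI cross scan days, so scan day cannot be told apart from treatment there. Adam10, the main sheddase of Notch and of several cadherins, was 3.83-fold lower in Hemin than in Control (-1.94 ± 0.32, adjusted p = 0.000333) and 3.49-fold lower in IRI+Hemin than in IRI (-1.80 ± 0.32, adjusted p = 0.000282). After normexp correction Adam10 gave -0.90 and -0.86 in these comparisons, both still called. Its mean was -2.04 ± 0.80 in Control and -2.07 ± 0.29 in IRI, against -3.98 ± 0.50 in Hemin and -3.87 ± 0.15 in IRI+Hemin, and it was -4.09 ± 0.41 in IPC+IRI, where 3 of 4 arrays were well above background. All groups scanned on other days than Control and IRI were thus low in Adam10. Adam19 was lower in IRI+Hemin than in IRI (-1.31 ± 0.25, adjusted p = 0.000571). For the other comparisons the ADAM and ADAMTS counts are given with no direction, since they turned with the scaling. In IPC+IRI against IRI 3 of 18 were higher and 3 lower, of which 1 and 3 were among the 15 well above background on at least 3 arrays of both groups, and normexp correction gave 1 and 4. Of 19 in IRI+Hemin against IRI 4 were higher and 2 lower, of which 2 and 2 were among the 16 measured in both groups, and normexp correction gave 1 and 3. Of 19 in Hemin against Control 4 were lower and none was higher by limma. At an unadjusted p below 0.05 the counts there were 5 lower and 0 higher, SAM called none in either direction, normexp correction gave 1 lower, and no normalization gave 2 higher and 1 lower.

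Among 11 tested inhibitors, activators and astacin proteases, Rhbdf2, an inactive rhomboid that carries ADAM17 to the cell surface, had the largest change in IRI and in IPC+IRI against Control. It was 4.12-fold higher in IRI than in Control (log2 change 2.04 ± 0.39 SE, adjusted p = 0.000304) and 3.48-fold higher in IPC+IRI (1.80 ± 0.39, adjusted p = 0.000768). In IRI+Hemin against Hemin it gave 0.78 ± 0.39 and was not called (adjusted p = 0.11). With Rhbdf2 included, 2 of the 11 were higher and 1 lower in IRI against Control, and 3 higher and 2 lower in IPC+IRI against Control. Mep1b, the beta subunit of meprin, an astacin protease of the proximal tubule brush border, was lower in IRI+Hemin than in Hemin (-1.66 ± 0.15, adjusted p = 4.71e-07) and than in IRI (-1.11 ± 0.15, adjusted p = 3.64e-05). The summed signal of 6 proximal tubule markers, in units of the 75th percentile of the array, was also lower in IRI+Hemin (261.4 to 375) than in Hemin (383.8 to 402.7). In IRI this sum ran from 298.9 to 419.9. Slc34a1 had the highest mean of the 6 in each group. Of the 6 markers, 0 were called higher and 4 lower in IRI+Hemin against Hemin, and 2 higher and 1 lower against IRI. The part of these cells in Mep1b was not tested. Of the 11, 1 was higher and 2 lower in IRI+Hemin against Hemin, 2 and 5 in IRI+Hemin against IRI, 2 and 3 in IPC+IRI against IRI, and 4 and 1 in Hemin against Control. After normexp correction the last 3 of these became 0 and 4, 0 and 3, and 1 and 1, and without normalization they were 3 and 1, 2 and 0, and 5 and 0. SAM called 0 and 1, 0 and 1, and none in Hemin against Control. For the other matrix metalloproteinases the counts were 3 higher and 4 lower of 10 in IPC+IRI against Control, of which none and 3 were among the 5 measured in both groups, and 2 higher and 2 lower of 11 in IRI+Hemin against Hemin. After normexp correction these became 0 and 2, and 1 and 1. By limma without that correction the counts were 1 and 0 of 10 in IPC+IRI against IRI, 4 and 0 of 10 in IRI+Hemin against IRI, and 0 and 1 of 9 in Hemin against Control. At an unadjusted p below 0.05 these became 2 and 1, 4 and 0, and 0 and 1, and SAM called 0 and 0, 1 and 0, and 0 and 0. Among the genes measured in both groups they were 0 and 0 of 5, 2 and 0 of 6, and 0 and 1 of 6. The scaling turned these counts: after normexp correction they were 0 and 1, 0 and 2, and 0 and 0, and without normalization Hemin against Control had 5 higher and 0 lower. The median of the 10 in IRI+Hemin against IRI went from 0.46 to -0.38 with normexp correction.

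**Figure D4:**
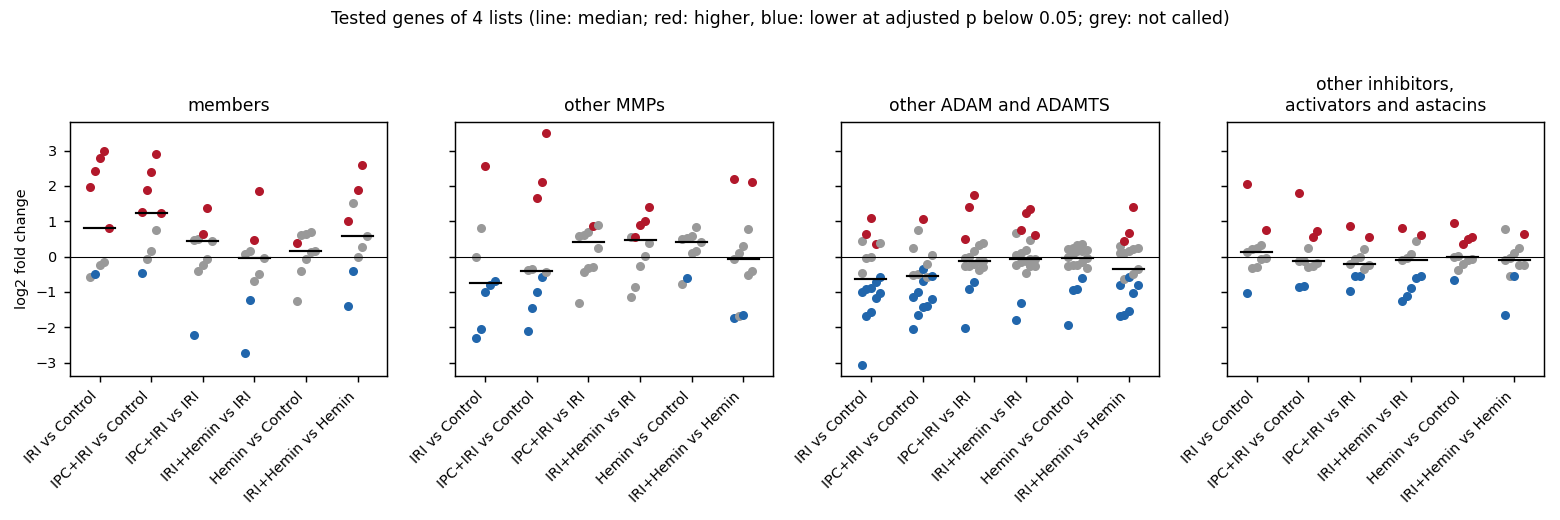
Log2 fold change of every tested gene of 4 lists in the 6 comparisons, with lines at the list medians, red for genes called higher and blue for genes called lower. The medians in IRI against Control are 0.80 for the members, -0.76 for the other matrix metalloproteinases and -0.65 for the other ADAM and ADAMTS genes, and the latter 2 were 0.02 and 0.05 after normexp correction. The members and lists were chosen with earlier results of these data known, so the contrast between lists is a description.

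Leukocyte markers differed between the groups, and not all in the same direction. The summed signal of 8 neutrophil markers, in units of the 75th percentile of the array, ran from 0.374 to 0.718 in Control, 0.603 to 1.69 in Hemin, 2.67 to 8.52 in IRI, 2.3 to 9.96 in IRI+Hemin and 6.55 to 20.2 in IPC+IRI. Between 2 and 3 of the 8 markers were well above background on the Control arrays, between 4 and 5 in IRI and in Hemin, between 5 and 6 in IRI+Hemin and between 4 and 8 in IPC+IRI. S100a9 is the largest part of this sum in each group by its mean level. Of the 4 markers tested in IRI against Control, 3 were called higher and 1 lower, which was Mpo (-0.74, adjusted p = 0.00728). Well above background on at least 3 arrays of both groups were S100a9 and Mpo alone, 1 higher and 1 lower. Camp, Csf3r, Cxcr2 and Retnlg were not well above background on any Control array. The sum of 8 monocyte and macrophage markers ran from 3.33 to 5.28 in Control, 4.21 to 5.16 in Hemin, 3.87 to 5.04 in IRI, 4.21 to 7.91 in IRI+Hemin and 5.73 to 21 in IPC+IRI, with 6 to 8 of them well above background. Lyz2 made up the largest part of this sum in each group. In IRI against Control 1 of 7 tested was higher, Cd68, and 1 lower, Cx3cr1, which was well above background on no IRI array. Of 8 tested in IPC+IRI against Control, 3 were higher (Cd68, Lyz2 and Itgam) and 1 lower (Cx3cr1). Itgam and Cx3cr1 were each well above background on 2 of 4 arrays of their lower group, and of the 6 markers measured in both groups 2 were higher and none lower by limma.

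The sum of 6 endothelial markers ran from 11.6 to 14.6 in Control, 12.2 to 17 in IRI, 13.3 to 20.5 in Hemin, 7.93 to 22.3 in IPC+IRI and 16.5 to 22.6 in IRI+Hemin, the group with the highest Timp2. Emcn made up the largest part of this sum in each group. Of the 6, 2 were called higher (Kdr and Emcn) and 1 lower (Cdh5) in IRI+Hemin against IRI, and in IPC+IRI against IRI, where Timp2 was also higher, none was higher and 4 were lower (Pecam1, Cdh5, Tek and Tie1), with a median log2 change of -0.88. The part of endothelial cells in Timp2 was not tested.

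Within IPC+IRI the leukocyte signal differed between arrays, and most members fully measured there were highest on the same arrays. Replicates 2 and 3 had neutrophil sums of 16.1 and 20.2 and monocyte and macrophage sums of 16.8 and 21, against 6.55 and 7.31 and 5.73 and 9.66 in replicates 1 and 4. They were the 2 highest IPC+IRI arrays for Timp1, Timp2, Mmp2, Mmp14 and Adam8, which is 5 of the 8 members well above background on all 4 arrays (62.5%), against 12.2% of all 16583 such genes. The 2 arrays were singled out after the values were seen, and the members are not independent of each other, so these shares are no test. Mmp9 was well above background on these 2 arrays alone. The other 4 genes did not follow. Mmp10 was lowest in replicate 3 (-5.07), Adamts1 was highest in replicate 1 (2.71), Adam17 in replicate 2 (-0.22) lay below replicate 1 (-0.09), and Timp3 lay at 6.12 and 6.01 in replicates 2 and 3 against 6.07 in replicate 1. In replicates 2 and 3 the sums of 8 fibroblast and mural cell markers, 27.4 and 26.3, were high as well, against 10.8 and 17.8. With 4 arrays this is a description, and the part of these cells in the levels of the members was not tested. Between IRI and IRI+Hemin, where Adam8 fell, the neutrophil sums overlapped, and the part of leukocytes in the Adam8 change was not tested.

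**Figure D5:**
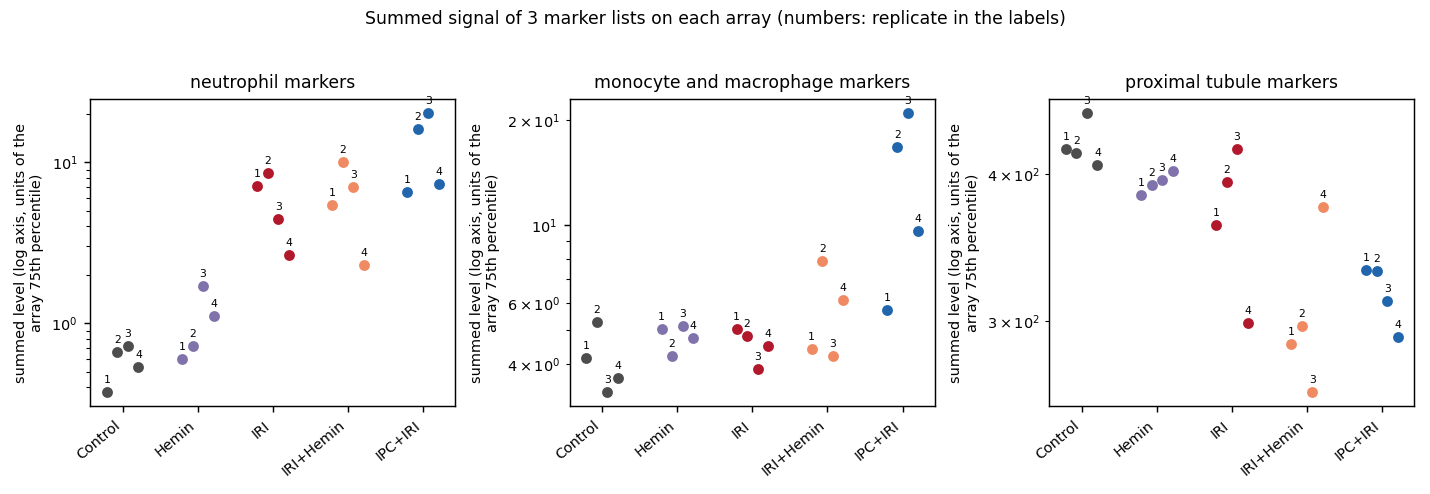
Summed signal of neutrophil, monocyte and macrophage, and proximal tubule markers on each array, on a log axis in units of the 75th percentile of the array, with the replicate number beside each point. Neutrophil sums lie above 2 on every array with ischemia and below 2 on every array without, and proximal tubule sums are lower in IPC+IRI (291.1 to 331.5) and IRI+Hemin (261.4 to 375) than in Control (406.9 to 450.4).

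The genes most like each member were sought by Pearson's r over the 20 arrays among 14473 genes well above background on all of them. Mmp9 and Mmp10, which were not, were left out. These arrays fall into the 5 groups, so that r mostly describes differences between groups. Adamts1 was closest to Klf6 (r = 0.990), Rela (0.980) and LOC676546 (0.980). Timp1 was closest to Cd53 (0.970), a tetraspanin of leukocytes, Cd44 (0.953), the hyaluronan receptor, and Slc2a3 (0.941), a glucose transporter. Adam17 followed Bcl2 (0.942), Exoc3 (0.942) and 6430706D22Rik (0.938), and Timp2 followed Ptprb (0.946), Nr2c2 (0.926) and Stim1 (0.924). Adam8 was closest to H2-Q5 (0.902), Znrf1 (0.896) and Rhou (0.892), and Mmp14 to Ncf4 (0.898), Plekho1 (0.859) and Agpat4 (0.846). Mmp2 was closest to the fibrillar collagen genes Col1a1 (0.83) and Col3a1 (0.83) and to Itga8 (0.81), and Timp3 to Wnt9b (0.787), 0610010K14Rik (0.787) and Rab33a (0.759).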

How the data were processed

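Kidney RNA was hybridised with 1 dye (Cy3) to Agilent whole mouse genome arrays. The authors deposited the scanner output of Agilent Feature Extraction 9.5.3.1, in which background had already been subtracted from the intensity of every spot. They also deposited a matrix with the log2 of this intensity, 18.1% of it blank. Flagged spots were left out, the spots of a probe averaged, each array divided by its 75th percentile, and the log2 of the mean over a gene's probes taken. Genes were tested where no more than 1 of the 8 values was missing and either group had at least 3 of 4 arrays well above background. Group means of all 20 arrays were fitted in R 4.3.3 by limma 3.58.1, with Benjamini-Hochberg adjustment per comparison. The fit was tested on simulated data: in IRI against Control, of 200 changed among 19053 genes, 65% of the 2-fold and 97% of the 4-fold changes were recovered, with 10 false calls. The simulated arrays held no slide or scan-day effect and far fewer changed genes than the data, so these rates need not hold for the calls reported. The alternatives were normexp (offset 50), no, quantile or other scaling, other probe summaries, the deposited matrix, other filters, a 2-fold cutoff, SAM as in the study's methods, a block for the replicate number, a fit of only the 8 arrays of each comparison, and each array left out. From the other lists of proteases, the text names up to 5 genes per list and comparison with the largest called change of at least 2-fold, well above background on all 8 arrays and without overlap. The members and lists were chosen with earlier results of these data known. Probe positions are on mm9. Precision is set by 4 arrays per group.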

Additional observations from a re-analysis of the deposited data

Results flagged for a closer look

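Of 50 sets of 4 arrays (10 genes in 5 groups), 5 held an array that stood apart from the other 3 by Dixon's test at its 95% critical value, and chance flags about 1 set in 20. Timp3 lay at 6.73 in IRI+Hemin replicate 4, above the other arrays of its group, and at 5.12 in IPC+IRI replicate 4, below the others. Mmp10 lay at -6.53 in IRI+Hemin replicate 4, where it was not well above background. Mmp9 lay at -5.44 in IRI+Hemin replicate 2, the 1 array of that group where it was well above background. Adamts1 lay at 2.35 in IRI replicate 1, below the other IRI arrays and above every Control array. IRI+Hemin replicate 4 and the other arrays named here were kept in all values of the report unless a value is given without them.

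The effect of ischemia on Adam8 was called different with and without Hemin at a value close to the threshold. The log2 effect with Hemin minus that without was -1.84 ± 0.54 (SE, limma, adjusted p = 0.0438), from 0.58 with Hemin and 2.42 without. The call was lost in 12 of 16 fits without 1 array (adjusted p from 0.0523 to 0.088) and held in 6 of 11 alternative settings.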

How the results depend on the processing

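None of the 25 called changes of members that were tested this way turned its direction under any alternative or without any array. Most of these calls were lost in at least 1 alternative or without 1 array. Called changes in IRI+Hemin against Control, IPC+IRI against IRI+Hemin and IPC+IRI against Hemin were not tested this way. Of the 25 changes, 9 held in all 13 alternative settings and without any single array. They were Timp1, Mmp10, Adamts1 and Adam8 in IRI against Control, Adamts1 and Adam8 in IPC+IRI against Control, Timp2 in IRI+Hemin against IRI, and Timp1 and Adamts1 in IRI+Hemin against Hemin. Counts of members follow, each called higher or lower in the comparison named.

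The members higher in IRI against Control were 4 in place of 5 with normexp, no normalization, scaling by probes well above background, the deposited matrix, the 2-fold cutoff and SAM, by the loss of Mmp14. With normexp, none in place of 1 was lower in IRI and in IPC+IRI against Control, 1 in place of 2 higher in IPC+IRI and in IRI+Hemin against IRI, 0 in place of 1 higher and 1 in place of 0 lower in Hemin against Control, and 0 in place of 2 lower in IRI+Hemin against Hemin. Without normalization between arrays, the median change of all genes shifted to 0.62 in Hemin against Control, 0.45 in IRI+Hemin against IRI, 0.41 in IPC+IRI against IRI and 0.35 in IPC+IRI against Control. There 5 in place of 1 were higher in Hemin against Control, none was lower in IRI against Control, IPC+IRI against Control or IPC+IRI against IRI, and 1 in place of 2 was lower in IRI+Hemin against IRI and against Hemin. Quantile normalization left 0 lower in IPC+IRI against IRI, and scaling by probes well above background left 0 higher in Hemin against Control. For IPC+IRI against Control, 0 were lower with the brightest probe, the mean of log2 values, the deposited matrix, no filter, the 8 arrays alone and the replicate block. For IPC+IRI against IRI, 2 were lower with the mean of log2 values, and 0 with no filter, a strict filter, the 8 arrays alone and the replicate block. The deposited matrix gave 1 lower in IRI+Hemin against IRI and against Hemin, and the strict filter 1 lower in IRI+Hemin against IRI. The 8 arrays alone gave 3 higher and 1 lower in Hemin against Control. With the 2-fold cutoff 0 were lower in IRI or IPC+IRI against Control, 1 higher in IPC+IRI or IRI+Hemin against IRI, 0 higher in Hemin against Control and 1 lower in IRI+Hemin against Hemin. SAM gave 2 in place of 5 higher in IPC+IRI against Control, 0 higher in IPC+IRI against IRI, 1 higher in IRI+Hemin against IRI and 0 in Hemin against Control, and 0 lower in each comparison. The count of members with a called interaction fell from 1 to 0 with normexp, no normalization, scaling by probes well above background, the deposited matrix and no filter.

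Leaving out 1 array at a time, the members lower in IPC+IRI against Control ranged from 0 to 1, in IPC+IRI against IRI from 0 to 2 and in IRI+Hemin against IRI from 0 to 2. The members higher in Hemin against Control ranged from 1 to 2, and those with an interaction from 0 to 2.

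Changes that were not called turned their sign as follows. With normexp these were Mmp2 in IRI against Control (0.0596), Timp3 (0.0564) and Mmp2 (-0.18) in IPC+IRI against IRI, Adamts1 in IRI+Hemin against IRI (0.19), Timp3 (0.0134) and Mmp2 (-0.19) in Hemin against Control, Timp3 in IRI+Hemin against Hemin (-0.0119), and the interactions of Adamts1 (0.00987) and Adam17 (-0.0253). Without normalization they were Mmp2 in IPC+IRI against Control (0.36), Timp3 (0.0785) and Timp1 (0.26) in IPC+IRI against IRI, Adamts1 in IRI+Hemin against IRI (0.34), Timp3 (0.50) and Timp1 (0.16) in Hemin against Control, Timp3 in IRI+Hemin against Hemin (-0.0793) and the Adam17 interaction (-0.11). They were also Mmp2 in IPC+IRI against Control (0.18) and Timp3 in IRI+Hemin against Hemin (-0.0401) with quantile normalization, the Timp1 interaction (0.00452) with the other scaling, and Timp1 in IPC+IRI against IRI (0.31) and Adamts1 in IRI+Hemin against IRI (0.17) with the deposited matrix. Without 1 array, sign changes came within the ranges -0.38 to 0.27 (Mmp2 in IPC+IRI against Control), -0.13 to 0.00982 (Timp3) and -0.00649 to 0.27 (Mmp2) in Hemin against Control, -0.49 to 0.44 (Timp1 in IPC+IRI against IRI), and -0.12 to 0.27 (Mmp14), -0.00136 to 0.24 (Timp3) and -0.20 to 0.12 (Adamts1) in IRI+Hemin against IRI. The others were -0.16 to 0.0756 (Timp3 in IRI+Hemin against Hemin) and -0.32 to 0.18 (Timp1 interaction). The cause of these shifts was not tested.

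Same-numbered arrays of different groups did not deviate together (median r = -0.03, from -0.38 to 0.21 over 40 pairs), so the numbers do not pair the samples. With the replicate block Timp3 in IPC+IRI against Control (adjusted p = 0.0676) and Mmp10 in IPC+IRI against IRI (adjusted p = 0.0553) were no longer called. The slide as a random block could not be fitted, because each group lay on 1 slide. Over all genes, calls in IRI against Control fell from 8971 to 3144 with normexp, 5282 without normalization, 3583 with the 2-fold cutoff and 2997 with SAM. Signal near background limits Mmp9 in every group and Mmp10 in Hemin.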
